A study of Mus musculus with 36 samples.

Results

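The respiratory chain was read here as 95 genes, 13 encoded by mitochondrial DNA and 82 by the nucleus, of 15289 genes in the deposited table of normalized CPM (read counts that the authors had scaled between libraries in a way not given in the sources used here). Members were chosen by symbol alone: mt-Nd, mt-Co, mt-Cytb and mt-Atp genes of the mitochondrion, and the nuclear Nduf, Sdh, Uqcr, Cox4 to Cox8, Atp5 and Cycs genes. The rule matched 97 rows, of which 1 row each of Uqcrc1 and Ndufs3 repeated another row with identical values and was counted once. The mitochondrial members comprise 7 of complex I, 1 of complex III, 3 of complex IV and 2 of complex V. The nuclear members comprise 37, 8, 15 and 17 of the same complexes, 4 of complex II, and cytochrome c (Cycs). Cyc1, a catalytic subunit of complex III, lies outside the rule. Inside it is Cox7a2l, a factor for supercomplex assembly. Ndufa4 was counted with complex I by its name, although it is now regarded as a subunit of complex IV.

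All libraries came from mice with a green fluorescent reporter driven by the promoter of Nrl, a rod-specifying transcription factor (strain label Nrl-GFP in every group). Mouse embryonic fibroblasts (MEF) at passage 2 were the starting cells (n = 3). A treatment with 5 chemicals in induction medium gave intermediates at day 5 (n = 3) and at day 8 (n = 3). Its end point was the photoreceptor-like cells called CiPC at day 11 (n = 3). Isolated rods were from postnatal day 2 (P2, n = 2), P4 (n = 2), P5 (n = 3), P6 (n = 3), P10 (n = 4), P14 (n = 3) and P28 (n = 4). Where cells were sorted by the reporter, the population is defined by the Nrl promoter alone. Nrl itself had means of 0.237 CPM in MEF, 0.151 on day 5, 0.155 on day 8 and 30.7 in CiPC. Any difference between sorted and unsorted cells would enter the comparisons and was not tested. P5 rods belong to the new series, as do all cultured cells, and rods of every other age carry labels of an earlier one, except that the third replicates of P10 and P14 name no earlier sample. Nothing states that replicates were separate cultures or animals, so the p-values cover just how far these samples lie apart, and that spread may be technical.

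Complexes I, III and IV pump protons across the inner mitochondrial membrane while electrons pass from NADH and succinate to oxygen, and complex V uses the gradient to make ATP. Complex II feeds in electrons from succinate and is encoded by the nucleus alone, whereas the other complexes join subunits of both genomes, and cytochrome c carries electrons from complex III to complex IV. Mitochondrial messages are cut from long transcripts of a circular genome, while each nuclear subunit gene has its own promoter. Photoreceptors pack mitochondria into the inner segment and are among the most energy-demanding cells of the body.

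The coding sequence of mt-Atp8, a small subunit of complex V, is shown because it runs into that of mt-Atp6, the proton channel subunit, and the ratio of their levels separated the submitted series. It lies at chrM:7766-7969 on the plus strand (GENCODE M21, GRCm38), is 204 bases long and shares its last 43 bases with mt-Atp6 (capitals).
mt-Atp8: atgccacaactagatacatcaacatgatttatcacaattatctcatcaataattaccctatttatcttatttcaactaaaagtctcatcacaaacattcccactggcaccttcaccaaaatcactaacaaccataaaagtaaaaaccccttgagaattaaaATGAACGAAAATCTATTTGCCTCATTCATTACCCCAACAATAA

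The same holds on a smaller scale for mt-Nd4l, a complex I subunit at chrM:9877-10173 on the plus strand, whose last 7 of 297 bases (capitals) belong also to mt-Nd4.
mt-Nd4l: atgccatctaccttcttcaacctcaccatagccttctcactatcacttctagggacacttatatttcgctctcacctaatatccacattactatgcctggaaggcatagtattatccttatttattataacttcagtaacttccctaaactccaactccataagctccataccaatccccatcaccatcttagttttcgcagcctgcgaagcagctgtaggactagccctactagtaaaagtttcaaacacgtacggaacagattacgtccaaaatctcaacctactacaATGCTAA

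Among nuclear members, the promoters of Cycs, Cox7a1 and Cox8b are shown because these genes had the largest rises on day 8, and that of Ndufa4 because it had the largest rise with rod age. Each is the 250 bases before the RefSeq gene start (GRCm38.p6), in the direction of the gene. Capitals mark a match to GCGCANGCG, the site of the nuclear respiratory factor NRF1, on either strand. The windows are chr6:50566570-50566819 (Cycs, minus strand), chr6:11907451-11907700 (Ndufa4, minus strand), chr7:30183921-30184170 (Cox7a1, plus strand) and chr7:140900447-140900696 (Cox8b, minus strand).
Cycs: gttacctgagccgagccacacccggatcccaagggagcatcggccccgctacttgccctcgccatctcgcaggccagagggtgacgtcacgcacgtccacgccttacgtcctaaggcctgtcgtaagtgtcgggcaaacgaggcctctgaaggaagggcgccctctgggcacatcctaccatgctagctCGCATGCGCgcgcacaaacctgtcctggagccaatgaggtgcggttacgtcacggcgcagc
Ndufa4: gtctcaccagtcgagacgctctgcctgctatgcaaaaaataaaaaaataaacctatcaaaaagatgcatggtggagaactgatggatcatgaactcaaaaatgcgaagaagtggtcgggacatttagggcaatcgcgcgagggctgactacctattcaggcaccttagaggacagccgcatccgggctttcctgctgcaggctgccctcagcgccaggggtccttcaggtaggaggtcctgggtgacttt
Cox7a1: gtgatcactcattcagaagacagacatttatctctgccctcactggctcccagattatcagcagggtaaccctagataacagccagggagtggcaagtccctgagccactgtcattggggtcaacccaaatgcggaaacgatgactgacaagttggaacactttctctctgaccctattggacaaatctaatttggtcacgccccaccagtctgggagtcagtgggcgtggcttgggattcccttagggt
Cox8b: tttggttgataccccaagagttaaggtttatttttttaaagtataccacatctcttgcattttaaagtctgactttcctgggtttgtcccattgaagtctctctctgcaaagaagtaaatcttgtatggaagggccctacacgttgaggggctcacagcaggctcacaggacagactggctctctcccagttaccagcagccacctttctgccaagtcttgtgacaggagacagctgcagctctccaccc

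Windows from 250 bases before to 50 after the start were found by symbol for 66 of the 82 nuclear members. Motifs were searched only in the 250 bases before the start, for members and for all genes alike. The NRF1 motif matched in 15 of these genes (22.7%), against 5.86% of all 27025 genes with a window. The motif CCGGAAG of ETS factors such as GABPA matched in 12 members (18.2%, against 7.83% of all genes). CAAGGTCA, the site of estrogen-related receptors, matched in 3 members (4.55%, against 1.51%). TAATCC, the core site of the photoreceptor factor CRX, matched in 6 members (9.09%, against 7.21%). The windows of Cox6a1, Ndufb4 and Sdha held 3 NRF1 matches each. Both strands were searched, each motif was counted on its own whatever it overlapped, and a match describes the letters, not a bound site.

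Levels stand on the authors' scaling between libraries, and depth is unknown. Under that scaling the columns did not have equal sums: they summed to 719752 to 746009 CPM at P2, 1928256 to 2277242 at P28, 870720 to 1435384 at P10 and P14, and 749719 to 1030192 in the other groups. The table lists no mitochondrial ribosomal or transfer RNA under an mt- symbol. The summed level of 15 rod markers was 7.42 to 12.6 CPM in MEF and intermediates, 539 to 549.7 in CiPC, 10717 to 11053 in P5 rods and 184579 to 235640 in P28 rods, with 12 of the 15 below 1 CPM in every MEF library and none in CiPC or rods. P10 replicate 4 and P14 replicate 3 stood apart from the others of their age, with nuclear sums of the chain of 8514 CPM against 20163 or more and of 6343 CPM against 19197 or more. P14 replicate 3 is also one of the libraries that name no earlier sample. In bulk samples, fewer cells of a type and less RNA per cell cannot be told apart.

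During the culture both genomes were highest on day 8. Summed CPM of the 13 mitochondrial members was 38274, 31548 and 32933 in the MEF libraries, 46787, 43213 and 42235 on day 5, 71258, 65449 and 54508 on day 8, and 39315, 40264 and 43999 in CiPC. The day 8 libraries lay above all others of the culture. The nuclear sum was 7983 to 8027 in MEF, 8296 to 8454 on day 5, 11653 to 12115 on day 8 and 8375 to 8697 in CiPC. Day 8 again lay apart, and CiPC overlapped day 5. Against day 5, the day 8 means were 1.45 times as high for the mitochondrial and 1.42 times for the nuclear sum.

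In rods, as deposited, both sums were higher at P28 than at P2, the mitochondrial sum by more, an order that quantile normalization turned for the median slopes. It was 24980 and 27355 CPM at P2, 35742 and 42714 at P4, 72708, 34179 and 37575 at P6, and 149456, 265484, 132727 and 33654 at P10. At P14 it was 152425, 106693 and 40449, and at P28 it was 220218, 245091, 194141 and 177048. P28 lay above P2 to P6 in every library, while P10 replicate 4 and P14 replicate 3 lay close to P4. The nuclear sum was 5604 to 6141 at P2, 7824 to 8247 at P6, 8514 to 29308 at P10, 6343 to 21659 at P14 and 16665 to 25600 at P28. The means did not follow age throughout: they were 145330 at P10 and 99856 at P14 for the mitochondrial and 20127 and 15733 for the nuclear sum, and the libraries of both ages overlapped. From P2 to P28 the means rose 7.99 times for the mitochondrial and 3.76 times for the nuclear sum. As a share of each column's sum, which was itself higher at P28, the increase was smaller. The mitochondrial members took 3.57% ± 0.14 (SD, n = 2) of the column at P2 and 10.1% ± 1.2 (SD, n = 4) at P28, and the nuclear members 0.802% ± 0.072 (SD, n = 2) and 1.06% ± 0.13 (SD, n = 4).

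The ratio of the sums does not depend on a scaling factor per library. It was 3.95 to 4.77 in MEF, 5.09 to 5.56 on day 5, 4.51 to 6.11 on day 8 and 4.68 to 5.06 in CiPC. Day 5 lay above MEF, day 8 overlapped both, and CiPC overlapped MEF. In rods of the older series it was 4.07 and 4.88 at P2, 5.41 and 7.10 at P4, 4.20 to 8.82 at P6, 3.95 to 9.06 at P10, 4.93 to 7.94 at P14 and 7.98 to 13.2 at P28. P28 lay above P2, P4 and P14 and overlapped P6 and P10. In P5 rods it was 2.17, 1.92 and 1.56. These 3 values were below those of the other 30 libraries.

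**Figure D1:**
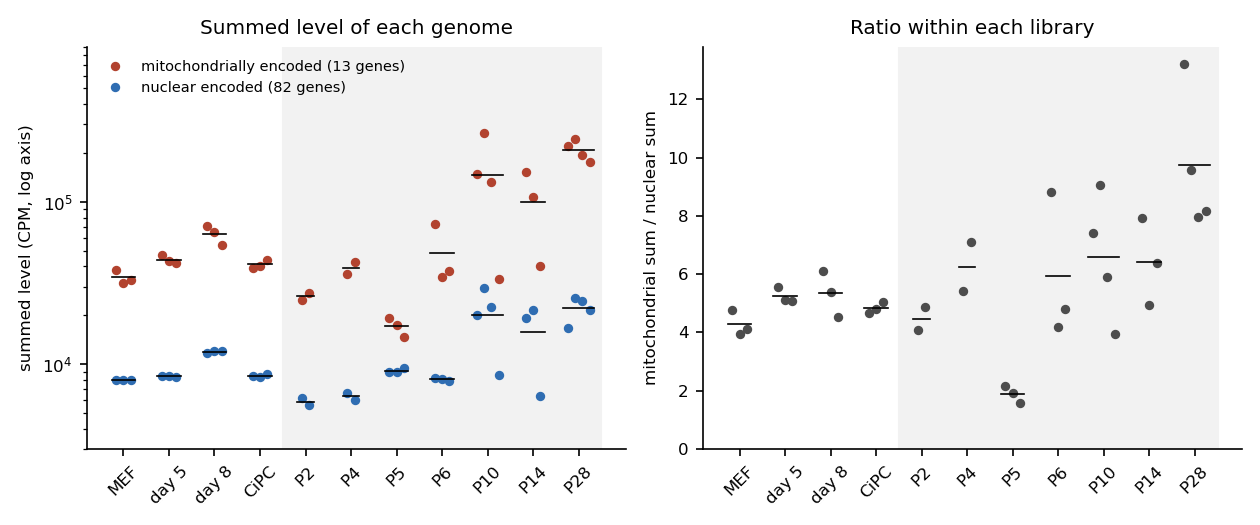
Summed CPM (log axis) of the 13 mitochondrial and 82 nuclear members and the ratio of the sums, in each library (points) with the group mean (bar) as deposited; rods are shaded. The 3 P5 libraries have the lowest ratios, 1.56 to 2.17.

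Per kilobase of the longest coding transcript, mitochondrial members stood far above nuclear ones. Their median level was 1811 CPM per kb in MEF, 3323 on day 8, 2098 in CiPC, 848 in P5 rods and 13394 in P28 rods. That of the nuclear members was 71.6, 101, 70.6, 69.5 and 141 CPM per kb in the same groups. mt-Co1, the catalytic subunit of complex IV, had the highest mean per kb of the mitochondrial members in every group but P4, where mt-Atp6 led, and P28, where mt-Cytb, the cytochrome b of complex III, led. Among nuclear members, Atp5b, the catalytic beta subunit of the synthase, had the highest mean per kb in every group but P10 and P14, where Ndufa4 led.

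Tests were made with limma on log2(CPM + 1), and a gene passed with a Benjamini-Hochberg adjusted p under 0.05 over all genes tested. From MEF to day 5, 8 of 13 mitochondrial members rose and 0 fell, where 40.7% of all genes tested rose and 40.3% fell. Of 79 nuclear members tested, 38 rose and 21 fell. The median log2 changes were 0.28 and 0.10, against 0.01 over all genes. mt-Co1 was at 11377, 9806 and 10117 CPM in MEF and 16048, 14795 and 14722 on day 5. The groups did not overlap, and the log2 change was 0.54 ± 0.06 (SE, limma adjusted p = 1.14e-05). mt-Nd1, mt-Nd2, mt-Nd3, mt-Co3 and mt-Atp8 did not pass. All 12 macrophage markers fell at the same step, and their summed level was 526 to 544 CPM in MEF and 57.5 to 63.4 on day 5. Csf1r, a receptor that defines macrophages, went from a mean of 49.1 CPM to 1.62, and Cx3cr1 from 33.9 to 0.199. All 7 adipocyte markers tested of 10 rose, with a sum of 45.3 to 53.1 CPM in MEF and 1533 to 1560 on day 5. The part of these cells in the members' changes was not tested. With all 33 libraries in one fit, 0 mitochondrial members passed as higher, and of the nuclear members 3 passed as higher and 2 as lower.

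Ndufv3, an accessory subunit of complex I, rose most among the nuclear members on day 5. It was at 39.9, 38.1 and 37.9 CPM in MEF and 82.2, 86.8 and 82.9 on day 5, a change of 1.10 ± 0.05 (SE, limma adjusted p = 1.66e-08). The testis-type isoform Cox6b2 rose by 1.05, from 23.9, 22.6 and 22.9 CPM to 46.8, 48.7 and 51.5. Cox7a2l (0.74), Ndufb11 (0.74) and Ndufb5 (0.66) also rose on the log2 scale. Cycs fell by 0.68, and so did Ndufb6 (-0.71), Uqcrq (-0.67), Atp5l (-0.57) and Ndufb4 (-0.56). In complex II, Sdha (0.32), Sdhc (0.35) and Sdhd (0.18) rose, while Sdhb, the iron-sulfur subunit, fell by 0.44.

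From day 5 to day 8 most of the chain rose. Of the 13 mitochondrial members 12 rose and 0 fell, and of 80 nuclear members tested 60 rose and 3 fell, where 25.6% of all genes rose and 23.9% fell. The median log2 changes were 0.55 and 0.51, against 0.00 over all genes. By complex, 26 of 36 nuclear members of complex I rose, 4 of 4 of complex II, 6 of 8 of complex III, 10 of 14 of complex IV and 13 of 17 of complex V. mt-Nd3 was at 256, 244 and 287 CPM on day 5 and 608, 601 and 531 on day 8. No library of either group overlapped the other, and the change was 1.14 ± 0.07 (SE, limma adjusted p = 1.47e-06). mt-Nd2 (0.95) and mt-Nd1 (0.93) followed, mt-Co1 changed by 0.39, a value that quantile normalization turned to -0.17, and mt-Nd4l did not pass (0.35). With all 33 libraries in one fit, whose spread is shared with the rods, 0 mitochondrial and 14 nuclear members passed as higher on day 8. With columns rescaled to equal sums, a setting chosen after seeing the data, 12 mitochondrial and 58 nuclear members rose, where 19.2% of all genes rose and 31.1% fell.

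Cox8b and Cox7a1, complex IV isoforms of heart, skeletal muscle and brown fat, rose most on day 8. Cox7a1 (chromosome 7, 30184144 to 30186078, plus strand) was at 0.510, 0.186 and 0.715 CPM in MEF, 1.16, 1.14 and 1.12 on day 5, 16.9, 15.3 and 16.03 on day 8, and 1.12, 1.06 and 1.09 in CiPC. Its day 8 libraries lay above the other 30, where no value passed 1.16 CPM, and the change from day 5 was 3.00 ± 0.10 (SE, limma adjusted p = 2.62e-08). Cox8b (chromosome 7, 140898945 to 140900446, minus strand) was at 9.33, 9.24 and 14.2 CPM on day 8, at 0.266 or less in MEF and on day 5, and listed at 0 in the 3 CiPC libraries. Its change from day 5 was 3.28 ± 0.17 (SE, limma adjusted p = 3.29e-07). Their widely expressed counterparts changed by less. Cox7a2 rose by 0.60, from 92.1 to 94.7 CPM to 137 to 148, and Cox8a by 0.38, from 146 to 152 CPM to 189 to 201.

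Markers of other cell types moved at the same step, where 25.6% of all genes tested rose and 23.9% fell. Of 10 brown adipocyte markers 8 rose and 1 fell from day 5 to day 8, and their summed level went from 66.9 to 95.5 CPM to 338 to 347. Ucp1, the uncoupling protein of brown fat, went from a mean of 0.0502 CPM to 119.8, and Elovl3 from 0.154 to 60.7. All 10 adipocyte markers rose, and their sum went from 1533 to 1560 CPM to 5462 to 5929. No marker of either list was below 1 CPM in all day 8 libraries. The sum of 18 skeletal muscle markers was 761 to 793 CPM on day 5 and 731 to 797 on day 8. The part of these cells in the levels of the chain was not tested.

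Cycs was at 28.0, 24.9 and 16.02 CPM on day 5 and 75.2, 82.2 and 81.4 on day 8, and rose by 1.78 ± 0.16 (SE, limma adjusted p = 1.95e-05). Every day 8 library lay above day 5. Uqcrfs1, the Rieske iron-sulfur protein of complex III, rose by 1.05, from 73.4 to 83.6 CPM to 161 to 175. The complex II genes rose by 0.74 (Sdhd), 0.67 (Sdhb), 0.59 (Sdha) and 0.20 (Sdhc). The 3 nuclear members that fell were Cox6b2 (-0.88), Ndufa7 (-0.33) and Cox7a2l (-0.26). Of the 3 genes for the c subunit of the synthase, Atp5g3 rose by 0.69 and Atp5g1 by 0.53, while Atp5g2 did not pass, at 4.25 to 8.23 CPM over both days.

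Other mitochondrial genes rose on day 8 as well, where 25.6% of all genes tested rose and 23.9% fell. Of 17 genes of the citric acid cycle and pyruvate dehydrogenase 15 rose and 0 fell, with a median of 0.84, among them Idh3a (1.80), Pdhb (1.43) and Dlat (1.36). Of 78 mitochondrial ribosomal protein genes 56 rose and 0 fell (median 0.34), and of 44 assembly factor genes 29 rose and 1 fell (median 0.35). Of 77 cytosolic ribosomal protein genes 4 rose and 42 fell. Cyc1 rose by 1.01. The coactivator Ppargc1a, which drives mitochondrial biogenesis, had a mean of 0.574 CPM in MEF, 21.5 on day 5, 49.4 on day 8 and 8.65 in CiPC, and rose from day 5 to day 8 by 1.17 ± 0.11 (SE, limma adjusted p = 2.70e-05). Tfam (0.45) and Lrpprc (0.48) rose, and Nrf1 (-0.14), Gabpa (0.05), Esrra (0.11) and Polrmt (0.19) did not pass.

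**Figure D2:**
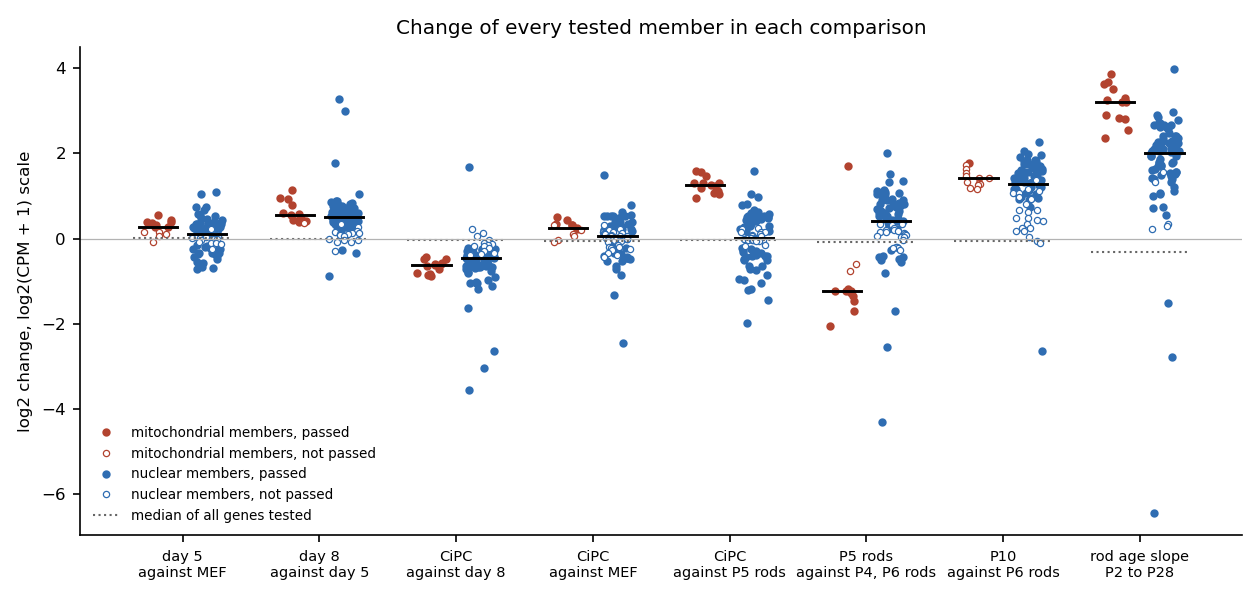
Log2 change on the log2(CPM + 1) scale of each tested member in each comparison, for mitochondrial and nuclear members; filled points passed the test, open points did not, bars are medians and dotted lines the median of all genes tested. The medians were close on day 8 (0.55 and 0.51) and had opposite signs in P5 rods against P4 and P6 rods (-1.24 and 0.41); under quantile normalization the mitochondrial slopes with rod age were mostly negative.

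From day 8 to CiPC most of the chain fell. Of the mitochondrial members 13 fell and 0 rose, although under quantile normalization only 4 fell and mt-Nd1, mt-Nd4, mt-Cytb, mt-Co1, mt-Co2 and mt-Co3 had values above 0. Of 81 nuclear members 65 fell and 1 rose, where 39.3% of all genes fell and 35.8% rose. The median changes as deposited were -0.62 and -0.45, against -0.04 over all genes. mt-Atp6 went from 5450, 4824 and 3976 CPM to 2800, 2137 and 2754. The groups did not overlap, and the change was -0.89 ± 0.14 (SE, limma adjusted p = 0.000394). Cox8b (-3.55), Cox7a1 (-3.03), Cox6b2 (-2.63), Ndufs5 (-1.63) and Cox7a2l (-1.19) fell most among nuclear members.

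The nuclear member that rose was Cox4i2, an isoform of complex IV subunit 4 known from lung and for its response to oxygen. It was at 0.0438, 0.225 and 0.390 CPM on day 8 and 3.08, 3.09 and 2.47 in CiPC, and rose by 1.68 ± 0.14 (SE, limma adjusted p = 5.87e-06). The summed brown adipocyte markers were at 59.1 to 70.0 CPM in CiPC, the adipocyte markers at 29.9 to 33.6 and the skeletal muscle markers at a mean of 13.6, all below day 8. The sum of 10 fibroblast markers was 52835 to 56398 CPM on day 8 and 625 to 678 in CiPC. The part of these cells in the fall was not tested. With columns rescaled, 8 mitochondrial and 35 nuclear members fell and 4 nuclear members rose, where 27.7% of all genes fell and 49% rose. With all 33 libraries in one fit, 0 mitochondrial and 20 nuclear members passed as lower in CiPC.

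Set against MEF, 7 mitochondrial members were higher in CiPC and 0 lower, and of 80 nuclear members 29 were higher and 19 lower, where 37.6% of all genes were higher and 42.0% lower. Medians were 0.26 and 0.07, against -0.05 over all genes. The mitochondrial count moved with single libraries, to 3 without MEF replicate 2, 3 without MEF replicate 3 and 4 without CiPC replicate 2, and it was 13 under quantile normalization and 0 with all 33 libraries in one fit, where 6 nuclear members were higher and 2 lower. With columns rescaled to equal sums, 13 mitochondrial and 52 nuclear members were higher and 7 nuclear members lower, where 50.8% of all genes were higher and 28.8% lower. All 12 macrophage markers were tested here too, and 11 were lower in CiPC, where their sum was 219 to 242 CPM. mt-Nd1 was at 2878, 2272 and 2354 CPM in MEF and 3423, 3530 and 3687 in CiPC. CiPC lay above MEF in every library, and the difference was 0.51 ± 0.09 (SE, limma adjusted p = 0.00054). Cox4i2 (1.49) was the only nuclear member that passed with a rise of at least 1 on the log2(CPM + 1) scale, and Cox6b2 (-2.46) and Ndufs5 (-1.32) were the only members that passed with a fall as large. That scale shrinks changes of low genes such as Cox7a1, whose CiPC libraries all lay above MEF in the CPM values given above. Atp5g3 (0.79), Ndufb5 (0.63), Atp5o (0.56), Sdha (0.54) and Ndufa10 (0.54) were higher, and Ndufa7 (-0.84), Cox7a2l (-0.70) and Ndufa2 (-0.63) were lower.

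**Figure D3:**
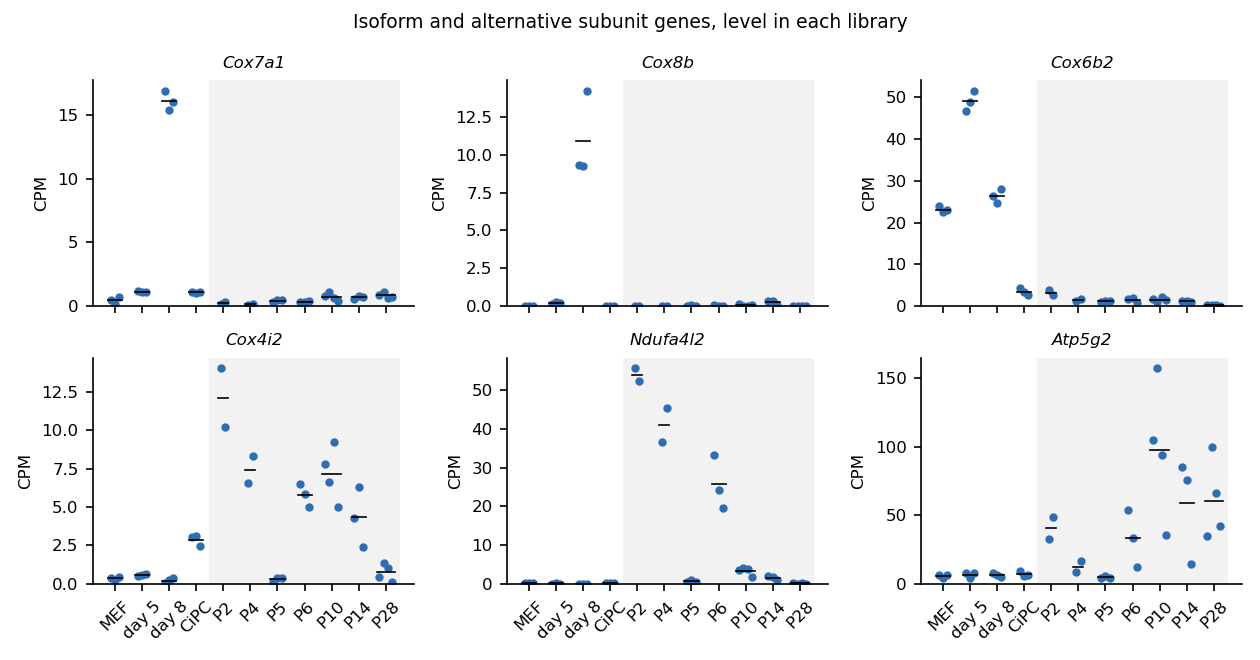
Level in CPM of isoform and alternative subunit genes of the chain in each library (points) with the group mean (bar); rods are shaded. Cox7a1 and Cox8b were highest on day 8, Cox6b2 on day 5, and Cox4i2 and Ndufa4l2 in P2 rods.

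Compared with P5 rods of the same series, CiPC differed in the mitochondrial members more than in the nuclear ones. The mean mitochondrial sum was 41193 CPM in CiPC and 17093 in P5 rods. It was 26167 at P2, 39228 at P4 and 48154 at P6 in the older series. In this sum CiPC lay above P2 and P5 in every library and overlapped P4 and P6. The mean ratio of the sums was 4.85 in CiPC, 1.89 at P5, 4.47 at P2, 6.25 at P4 and 5.94 at P6. For P5 rods, age and series cannot be told apart. All 13 mitochondrial members were higher in CiPC, 12 of them at least 2 times, where 42.3% of all genes were higher and 43.4% lower. Of 80 nuclear members 30 were higher and 27 lower. Medians were 1.25 and 0.02, against -0.03 over all genes, a value that moved to -0.21 under quantile normalization. mt-Nd2 was at 1779, 1852 and 2039 CPM in CiPC and 732, 625 and 541 in P5 rods. CiPC lay above P5 in every library, and the difference was 1.59 ± 0.10 (SE, limma adjusted p = 3.26e-07). Mki67, a gene of dividing cells, was at 380 to 434 CPM in CiPC and 4.16 to 5.04 in P5 rods. Rlbp1, a gene of Müller glia, had means of 263 and 16.8 CPM. The part of dividing and of other cells in the difference was not tested.

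Of 36 nuclear complex I members 18 were lower in CiPC than in P5 rods and 8 higher, with a median of -0.21, where 43.4% of all genes tested were lower and 42.3% higher. The lower members included Ndufv1 (-1.44), which carries the NADH-binding site, and the accessory subunits Ndufb11 (-1.22), Ndufv3 (-1.19) and Ndufs5 (-1.03). Older-series rods of neighbouring age did not share the P5 level. The mean nuclear complex I sum was 2059 CPM in CiPC, 2737 at P5, 1614 at P2, 1663 at P4 and 2228 at P6. Ndufv1 had means of 70.3 CPM in CiPC, 192 at P5, 76.3 at P2, 64.6 at P4 and 90.5 at P6. Atp5sl, an older symbol of a complex I assembly factor, was lower by 1.99 on the log2 scale, the most of all members. Cox4i2 (1.58), Cox6b2 (1.05), Uqcr10 (0.97), Atp5d (0.82) and Atp5e (0.78) were the most above P5 rods. With all 33 libraries in one fit, 7 nuclear members were higher and 9 lower.

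P5 rods differed from older-series rods of neighbouring age in opposite ways for the genomes. Against the mean of P4 and P6, 10 mitochondrial members were lower and 1 higher, while 48 of 80 nuclear members were higher and 11 lower, where 29.1% of all genes were higher and 36.5% lower. Medians were -1.24 and 0.41, against -0.09. mt-Atp6 was at 1508, 1253 and 676 CPM at P5, 4628 and 5167 at P4 and 4834, 3464 and 4277 at P6. P5 lay below both ages, and the difference was -2.05 ± 0.25 (SE, limma adjusted p = 3.61e-05). mt-Nd4 (-1.70) and mt-Co3 (-1.47) were also lower, and mt-Nd4l (-0.59) and mt-Co2 (-0.76) did not pass. The member that was higher, mt-Atp8, was at 156, 123 and 83.6 CPM at P5, 26.1 and 35.9 at P4 and 91.7, 33.1 and 23.0 at P6, a difference of 1.69 ± 0.37 (SE, limma adjusted p = 0.00214). P6 replicate 1 lay above P5 replicate 3.

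Among nuclear members, Atp5k was higher at P5 by 2.00, Atp5g1 by 1.51, Ndufb11 by 1.35, Ndufv1 by 1.32 and Ndufb9 by 1.13. Atp5g1 was at 124, 126 and 142 CPM at P5, 38.8 and 35.8 at P4 and 60.7, 58.5 and 45.2 at P6, while Atp5g2 was lower at P5 by 1.70. Ndufa4l2 (-4.29), Cox4i2 (-2.54) and Ndufb4 (-0.81) were lower as well. Other readouts of these libraries differed too. Mki67, a gene of dividing cells, was at 4.16 to 5.04 CPM at P5, 202 to 239.9 at P4 and 42.2 to 88.2 at P6. Of 10 Müller glia markers tested 8 were lower at P5 and 1 higher, and the sum of the 11 listed was 302 to 333 CPM at P5 and 777 to 1266 at P4 and P6. Rlbp1, which defines these glia, had a mean of 16.8 CPM at P5, 145 at P4 and 160.0 at P6. Of 15 rod markers 7 were lower at P5 and 3 higher, and of 8 macrophage markers tested 5 were lower and 0 higher. Over all genes tested 36.5% were lower and 29.1% higher, to which the rod markers came near. The sum of 10 immediate early genes, which respond to stress and handling, was 301 to 334 CPM at P5 and 772 to 1514 CPM at P4 and P6. Its members were not uniform. Fos had means of 23.6 CPM at P5, 470 at P4 and 303 at P6, while Atf3 had 27.5, 5.67 and 7.98. With all 33 libraries in one fit, 18 nuclear members were higher and 6 lower. The part of other and of dividing cells was not tested. The series and the state of the cells cannot be told apart.

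Ratios within pairs of mitochondrial messages that overlap on the same strand separated the series as well. mt-Atp8 stood at 9.61% ± 1.8 of the CPM of mt-Atp6 in the fibroblasts, 11.4% ± 1.5 in CiPC and 10.9% ± 1.3 in P5 rods (SD, n = 3 each). Group means were 7.94 to 11.4% in the new series and 0.629 to 2.25% in the older rods. For mt-Nd4l against mt-Nd4 they were 14.9 to 17.0% and 7.45 to 9.75%. In both ratios P5 rods stood with the cultured cells of their series and not with rods of neighbouring age. mt-Nd6, the member encoded on the other strand, overlaps mt-Nd5 by 14 bases, and the strand of the library kit is not given in the sources used here, so reads of that overlap cannot be assigned.

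From P6 to P10, 56 of 80 nuclear members rose and 1 (Ndufa4l2) fell, and 1 of 13 mitochondrial members (mt-Atp8) rose and 0 fell, where 13.9% of all genes rose and 16.0% fell. Medians were 1.29 and 1.41, against -0.06. With all libraries of the study in one fit, 13 mitochondrial and 68 nuclear members rose, and with the replicate number as a block 12 and 73. With columns rescaled to equal sums, 0 mitochondrial and 34 nuclear members rose, where 6.34% of all genes rose and 30.4% fell. The counts rested on single libraries as well. Without P10 replicate 4, 73 nuclear and 13 mitochondrial members rose. Without P6 replicate 1, 2 or 3 the nuclear count was 19, 6 and 3, and without P10 replicate 1, 2 or 3 it was 14, 24 and 15. The mitochondrial count was 0 in each of these but the first, where it was 1.

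mt-Co1 was at 20638, 9875 and 12156 CPM at P6 and 40591, 70122, 38669 and 9956 at P10, with a change of 1.26 ± 0.80 (SE, limma adjusted p = 0.25) that did not pass. P10 replicate 4 lay within the P6 range and the other P10 libraries above it. Ndufa4 was at 220.5, 186 and 189 CPM at P6 and 1174, 1842, 1265 and 309.5 at P10. The groups did not overlap, and the change was 2.27 ± 0.50 (SE, limma adjusted p = 0.00822). Ndufb11 (2.06), Cox6c (1.99), Ndufa1 (1.95) and Cox8a (1.92) also rose.

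Over P2 to P28, fitted as a slope on log2 age in the older series and given as the change over that range, 13 mitochondrial members rose as deposited and 3 under quantile normalization, where 33.9% of all genes rose and 30.8% fell. Of 81 nuclear members 73 rose as deposited and 3 fell, where 29.4% of all genes rose and 40.3% fell. Medians were 3.20 and 2.01, against -0.31 over all genes, the last of which moved to -0.18 under median-of-ratios scaling and 0.07 under quantile normalization. With each column rescaled to the same sum most of the nuclear calls were lost: 11 nuclear members rose and 10 fell, 9 mitochondrial members rose and 0 fell, and 7.32% of all genes rose and 74.1% fell. The medians were then 1.57 for mitochondrial members, 0.41 for nuclear members and -1.51 over all genes, so both medians still lay above that of all genes. The rises given below are those of the values as deposited. The difference of the medians, mitochondrial minus nuclear, was 1.19 as deposited, 1.16 with columns rescaled and -1.74 under quantile normalization. mt-Cytb was at 2702 and 3015 CPM at P2 and 38856, 46926, 36396 and 32401 at P28, and its slope was 3.86 ± 0.64 (SE, limma adjusted p = 2.11e-05) as deposited and -0.15 under quantile normalization. mt-Nd2 (3.68), mt-Nd4l (3.62) and mt-Nd4 (3.52) followed, and mt-Co1 (2.56) and mt-Atp6 (2.37) rose least, with mt-Nd4, mt-Co1 and mt-Atp6 turning to -0.20, -2.07 and -1.57 under quantile normalization.

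Ndufa4 rose more than any other member, by 3.97 ± 0.64 (SE, limma adjusted p = 1.51e-05), and by 2.35 with columns rescaled. It was at 105 and 103 CPM at P2, 138 and 107 at P4, 1250, 1231 and 234 at P14 and 901, 1400, 1254 and 1063 at P28. P28 lay far above P2 and P4, and P14 replicate 3 far below the others of its age. Uqcrb of complex III rose by 2.97, the complex I subunit Ndufb11 by 2.90 and Cox6c by 2.78. With columns rescaled these were 1.35, 1.28 and 1.16, the last of which did not pass. As deposited, 36 of 37 nuclear members of complex I rose and 6 of 8 of complex III. In complex IV 12 of 14 rose and in complex V 16 of 17, where 29.4% of all genes rose. The members that did not pass were Uqcr11 (1.56), Atp5g2 (1.33), Uqcrc2 (0.34), Sdhb (0.30) and Sdhd (0.22).

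Complex II was uneven. Sdha, the flavoprotein that oxidizes succinate, was at 206 and 258 CPM at P2 and 586, 1129, 1151 and 853 at P28 and rose by 2.11 ± 0.28 (SE, limma adjusted p = 1.40e-06). Sdhc, a membrane anchor, rose by 2.01. Sdhb was at 48.8 and 45.3 CPM at P2, 74.2, 93.6, 76.4 and 44.5 at P10 and 56.2, 57.7, 54.5 and 56.3 at P28. Its P28 libraries lay above P2 and its slope did not pass, at 0.30 ± 0.24 (SE, limma adjusted p = 0.269). Sdhd, the other anchor, was at 65.9 and 57.6 CPM at P2 and 77.8, 80.6, 78.3 and 71.2 at P28. The difference between the slopes of these genes was not tested.

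**Figure D4:**
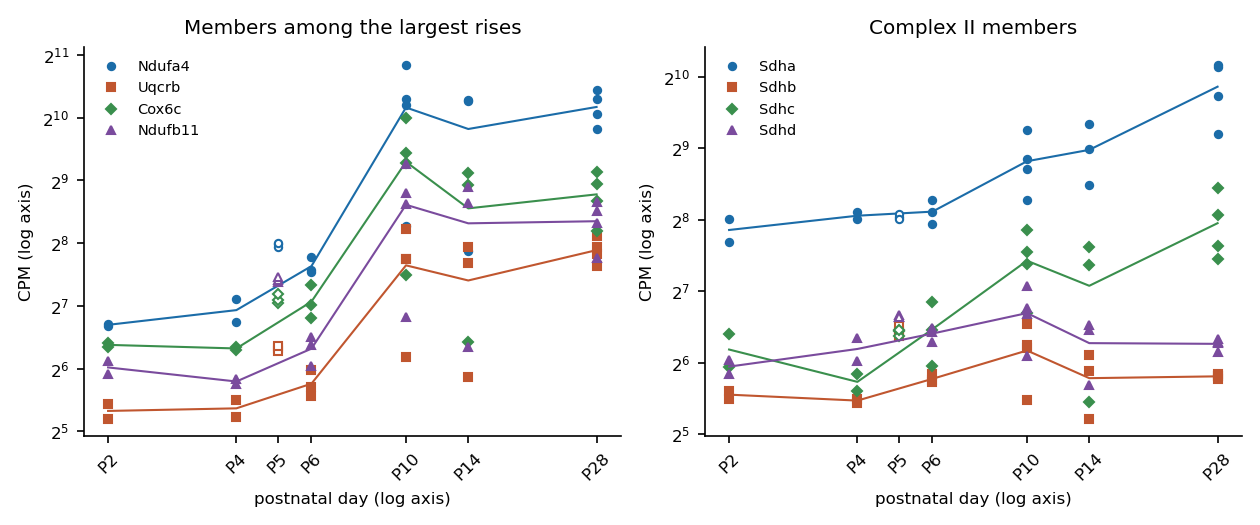
CPM (log axis) of nuclear members with a large rise and of the complex II genes against postnatal age (log axis) in each rod library; lines join the means of the older series and open symbols are P5. Sdha and Sdhc as deposited rose over the older series by 2.11 and 2.01 on the log2 scale, while Sdhb (0.30) and Sdhd (0.22) did not pass.

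The 3 nuclear members that fell with rod age were alternative subunits. Ndufa4l2, a paralog of Ndufa4 induced by low oxygen (chromosome 10, 127514967 to 127517154, plus strand), was at 55.5 and 52.2 CPM at P2, 36.5 and 45.3 at P4, 33.3, 24.3 and 19.4 at P6, 1.81 to 4.09 at P10, 1.13 to 2.03 at P14 and 0.0439 to 0.222 at P28. Each older age lay below the one before it, except that P14 overlapped P10, and the slope was -6.43 ± 0.46 (SE, limma adjusted p = 4.50e-10). In P5 rods it was at 0.516, 1.02 and 0.550 CPM, below P4 and P6. Cox4i2 (chromosome 2, 152754173 to 152765037, plus strand) was at 14.0 and 10.2 CPM at P2, 5.00 to 9.21 at P10, 0.125 to 1.35 at P28 and 0.104 to 0.418 at P5, and fell with age by 2.78. Cox6b2 fell by 1.51, from 3.89 and 2.61 CPM at P2 to 0.393 or less at P28.

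Of 13 hypoxia targets tested, a list without Ndufa4l2 and Cox4i2, 4 rose and 4 fell with rod age, where 29.4% of all genes rose and 40.3% fell, and 3 were higher and 9 lower in P5 rods than in P4 and P6, where 29.1% of all genes were higher and 36.5% lower. Of 10 immediate early genes 8 fell with rod age and 0 rose, and their sum went from 1298 to 1535 CPM at P2 to 51.1 to 72.5 at P28. The sum of 7 pericyte markers, a list chosen after the values were seen, was 13.7 to 17.1 CPM at P2, 2.52 to 2.85 at P5, 15.4 to 40.8 at P10 and 1.72 to 4.12 at P28. In MEF it was 409.5 to 428 CPM, with means of 208.6 CPM for Pdgfrb, 90.6 for Rgs5, 1.48 for Abcc9 and 0.821 for Kcnj8. Of 11 Müller glia markers 3 rose and 6 fell with rod age, and their sum was 1188 to 1193 CPM at P2 and 241 to 507 at P28. Mki67 was at 444 to 505 CPM at P2 and listed at 0 at P28. The part of other cells, of dividing cells and of handling in these levels was not tested.

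Within the mitochondrial genome, the balance of messages was different at P28. mt-Co1 took 28.4% ± 1.5 (SD, n = 2) of the mitochondrial CPM at P2, 28.8% ± 3.6 (n = 3) at P14 and 19.8% ± 2.6 (n = 4) at P28. mt-Cytb took 10.9% ± 0.15, 12.3% ± 0.51 and 18.5% ± 0.64 at the same ages. For both genes the 4 P28 libraries lay outside the range of the other 29 libraries. mt-Nd4 took 9.29% ± 1.2 at P14 and 12.0% ± 0.41 at P28, and mt-Nd2 3.38% ± 1.2 and 6.01% ± 0.51. Set against mt-Co1, the CPM of mt-Cytb stood at 38.5% ± 1.5 at P2, 43.2% ± 6.4 at P14 and 94.1% ± 11 at P28, and at 38.6% ± 0.55 in MEF and 42.0% ± 0.63 in CiPC (n = 3 each).

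**Figure D5:**
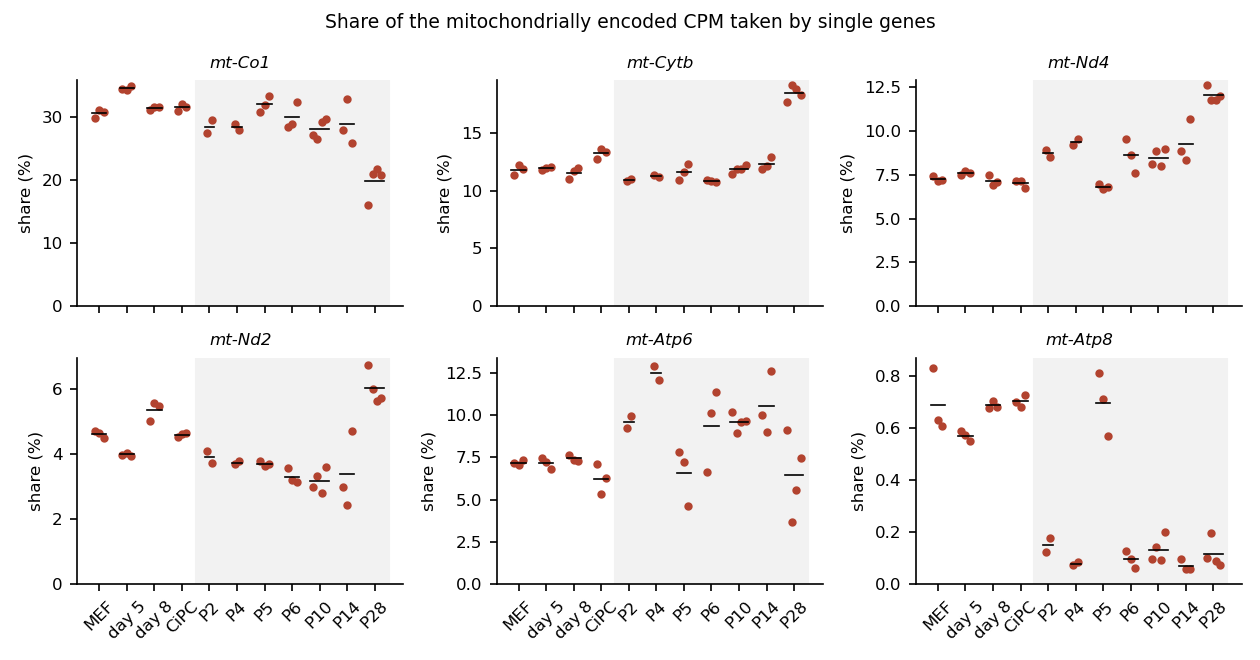
Share (%) of the summed CPM of the 13 mitochondrial members taken by single members in each library (points) with the group mean (bar); rods are shaded. At P28 mt-Cytb took more and mt-Co1 less than at other ages, and mt-Atp8 took 0.570 to 0.703% on average in groups of the new series and 0.0702 to 0.149% in older rods.

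Regulators and neighbours of the chain moved unevenly with rod age as deposited. Ppargc1a rose by 3.08, from a mean of 12.9 CPM at P2 to 106 at P28, and Esrrb, an estrogen-related receptor of rods, by 11.10, from 0.735 to 1460 CPM. Lrpprc, which stabilizes mitochondrial messages, rose by 2.35. Tfam, which packages mitochondrial DNA and helps start its transcription, fell by 1.46, from a mean of 58.2 CPM at P2 to 24.1 at P28, and Polrmt, the mitochondrial RNA polymerase, did not pass (-0.31). Over all genes tested 29.4% rose and 40.3% fell as deposited (median -0.31), and 7.32% rose and 74.1% fell with columns rescaled. These shares stand beside each list below. Of 16 genes of mitochondrial transcription and replication 3 rose and 10 fell (median -0.92). Polg2, an accessory subunit of the mitochondrial DNA polymerase, rose by 4.96. Of 44 assembly factor genes 31 rose and 0 fell, led by Uqcc3 (4.17) and Ndufaf5 (3.72). Of 17 citric acid cycle genes 13 rose and 2 fell, with Sucla2 at 2.66 and Idh2 at -4.07, and of 78 mitochondrial ribosomal protein genes 44 rose and 6 fell.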

How the data were processed

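RNA was sequenced from 33 libraries in 11 groups, taken from the labels. The 3 samples of P3 rods have no column and were not analysed here. The submitters' processing notes name kallisto as the quantifier. The sources used here give neither its version and index nor the genome build and the strand. The deposited values are a normalized CPM signal that the authors had scaled between libraries in an unstated way. They are not whole, whole reads could not be recovered, and no count model was fitted, since depth and the precision it allows are unknown. The number of unused value columns was 0.

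Values were analysed as log2(CPM + 1), which shrinks changes of genes near 0 CPM. Genes with 1 CPM or more in at least 3 libraries of a fit (2 where the smallest group had 2) were tested with limma 3.58.1 in R 4.3.3, with moderated variances and a mean trend, on the groups compared. The rod slope covers P2 to P28 of the older series, with the third replicates of P10 and P14 included. The procedure was tested on simulated data. Sums, ratios and lists carry no test. Members, lists, tests, motifs and promoters were chosen with earlier results of these data known. The naming rule took the mitochondrial members, tissue isoforms, the catalytic core, per comparison the 5 nuclear members that rose most and the 5 that fell most (group mean of 10 CPM or more), up to 4 members of each other list, and chosen regulators. Any other gene was named after its values were seen, and some genes are not reported here. Gene spans are from GENCODE M21 (GRCm38), matched by identifier for all 95 members, and promoters from RefSeq (GRCm38.p6). Members with pseudogenes or close copies, such as the Atp5g genes, are uncertain, because how reads were shared among copies is unknown. Alternatives were a pseudocount of 0.25, filters of 0 and 5 CPM, quantile normalization, median-of-ratios factors from nuclear genes, no mean trend, all libraries in one fit, the replicate number as a block and each library left out. Columns rescaled to equal sums were added after seeing the data.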

Additional observations from a re-analysis of the deposited data

Results flagged for a closer look

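Cox4i1, the widely expressed isoform of complex IV subunit 4, was at 331.4 CPM in P28 replicate 1 and at 571 to 582 CPM in the other 3 P28 libraries. The gap of that library to the next was 0.957 of the group's range, above Dixon's critical value for 4 samples. Of 89 such sets of values tested over groups of 4 (sums, ratio and single members), this 1 stood apart, where chance sets apart about 1 in 20. P28 replicate 1 also had the lowest nuclear sum of its age, at 16665 CPM against 21678 to 25600. Its ratio of the sums was the highest of that age, at 13.2 against 7.98 to 9.57.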

How the results depend on the processing

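Depth is unknown and limits of detection could not be set. Over 515 recomputed values of 36 summary results, 51 moved. Under quantile normalization, 281 of 333 single-gene results kept direction and call, 32 lost the call and 20 turned. Those that turned had values of 0.0167 (Cox7a2) for day 5 against MEF, -0.17 (mt-Co1) for day 8 against day 5 and -0.0695 (Atp5g2) for CiPC against P5 rods. For CiPC against day 8 they were mt-Nd1 0.43, mt-Nd4 0.16, mt-Cytb 1.07, mt-Co1 1.03, mt-Co2 0.42, mt-Co3 0.37, Atp5a1 0.11 and Atp5b 0.15. For the rod age slope they were mt-Nd1 -0.97, mt-Nd4 -0.20, mt-Nd5 -0.27, mt-Cytb -0.15, mt-Co1 -2.07, mt-Co2 -0.56, mt-Co3 -1.07, mt-Atp6 -1.57 and Atp5a1 -0.57. The median of mitochondrial minus nuclear members under that scaling was 0.32 for CiPC against day 8, 0.56 for CiPC against MEF, 0.82 for CiPC against P5, -0.92 for P10 against P6 and -1.74 for the slope. Mitochondrial calls became 4 lower in CiPC than on day 8, 13 higher in CiPC than in MEF and 3 rising with age. The cause was not tested.

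With each column rescaled to the same sum, chosen after seeing the data, 266 single-gene results kept direction and call, 53 lost the call and 13 turned. Those that turned were Cox8a 0.046, Ndufa4 0.0198 and Atp5g3 0.0686 for CiPC against day 8, Atp5g1 0.0998, Uqcrc1 0.0587 and Gabpa 0.13 for CiPC against MEF, and Atp5g3 -0.0951, Ndufs1 -0.54, Ndufs7 -0.25, Ndufv2 -0.40, Uqcrfs1 -1.05, Nrf1 -0.87 and Slirp -0.0519 for the slope. Members that fell from day 8 to CiPC were 35 nuclear and 8 mitochondrial. In CiPC against MEF 52 nuclear and 13 mitochondrial members were higher and 7 nuclear lower. From P6 to P10 34 nuclear and 0 mitochondrial members rose, and 11 nuclear members rose with age. That scaling moved the median change of all genes to 0.12 for day 5 against MEF, 0.24 for CiPC against day 8, 0.26 for CiPC against MEF, -0.16 for CiPC against P5, -0.48 for P10 against P6 and -1.51 for the slope, from 0.01, -0.04, -0.05, -0.03, -0.06 and -0.31 as deposited.

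In the fit of all 33 libraries, 132 single-gene results kept the call and 152 lost it. Counts of nuclear members higher and lower were 3 and 2 for day 5 against MEF, 6 and 2 for CiPC against MEF, 7 and 9 for CiPC against P5, and 18 and 6 for P5 against P4 and P6. There were 14 higher on day 8 and 20 lower in CiPC than on day 8. Of the mitochondrial members 0 passed in the reported direction in each comparison within the culture and 13 rose from P6 to P10. Without a filter, 25 nuclear and 0 mitochondrial members rose from P6 to P10. Mean log2 values in place of sums gave a log2 change of the ratio of 0.18 for day 5 against MEF and 1.48 for the slope.

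With 1 library left out, the mitochondrial count for CiPC against MEF ran from 3 to 10, and for P10 against P6 the nuclear count ran from 3 to 73 and the mitochondrial count from 0 to 13. No other count moved by over 1.5 times. The median of mitochondrial minus nuclear members moved by less than 1 SD between libraries throughout. It ran from -0.077 (without day 8 replicate 1) to 0.21 (without day 8 replicate 3) for day 8 against day 5, from -0.078 (without P10 replicate 2) to 0.41 (without P6 replicate 1) for P10 against P6, from -0.28 (without day 8 replicate 3) to -0.079 (without CiPC replicate 1) for CiPC against day 8, from 0.11 (without MEF replicate 2) to 0.27 (without MEF replicate 1) for CiPC against MEF and from 0.15 (without MEF replicate 2) to 0.28 (without MEF replicate 1) for day 5 against MEF. Of the single-gene values with 1 library left out, 2477 kept direction and call and 195 lost the call. Without P10 replicate 4 and P14 replicate 3 together, all 49 slopes tracked kept direction and call. Deviations of samples with the same replicate number correlated at -0.443 to 0.172 in the group comparisons and at -0.451 to 0.584 among rod ages. These deviations were centred within small groups, so the values neither show a pairing by number nor exclude one. With the replicate number as a block, 73 nuclear and 12 mitochondrial members rose from P6 to P10, and no other count moved by over 1.5 times. The block for P5 against P4 and P6 was added after seeing the data.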
